A study of Rattus norvegicus with 16 samples.

Results

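In the rat, epididymal initial segment taken 18 h after efferent duct ligation was compared with that taken 6 h after it. The comparison used 8 of the 16 arrays of the series, the 4 of the 18 h group and the 4 of the 6 h group, chosen by their titles. All animals were normal adult male Sprague-Dawley rats kept on an equal light and dark cycle, and no transgene or drug was involved. Per the labels, the efferent ducts were tied on 1 side of each animal, the opposite side had a sham operation, and the most proximal piece of the initial segment (zones 1a and 1b) was dissected. Both groups were therefore ligated, and no sham array entered the comparison. It asks what moved in the ligated tissue between 6 h and 18 h, not what ligation itself changed. Hours after ligation and hour of the day may have moved together, since the hour of surgery is not given in the labels, and the parts of each cannot be told apart here. The labels call the replicates biological without naming animals, so p-values measure the spread between these tissue samples.

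The initial segment is the first stretch of the epididymal duct, lined mainly by tall principal cells that absorb testicular fluid and secrete proteins into the lumen. It depends on lumicrine factors, which are testicular products that arrive in the luminal fluid and, among other effects, keep the growth factor and ERK kinase pathway active. The ETS factors of the PEA3 group, Etv1, Etv4 and Etv5, are transcription factors raised by ERK activity. Tying the efferent ducts stops that fluid, and loss of initial segment genes, inflammation-linked transcripts and death of epithelial cells are known to follow. By its title, the study is about ERK, STAT and NFKB signalling and cell death in this tissue.

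The arrays held 31042 probe sets after the controls were left out, and 12995 of them were tested, because 4 or more of the 8 arrays read 5 or higher in log2 units. These tested probe sets stood for 8173 genes, each gene being read from its tested probe set of highest mean level. Levels are GCRMA values on the log2 scale, a difference is the 18 h mean minus the 6 h mean, and a gene is said to have risen or fallen where limma gave an adjusted p under 0.05. A mean under 5 was taken as not told from background, and a difference from it is then given as a lower bound. The adjusted p beside a bound belongs to the measured difference, with values under 5 as read, and does not test the bound. The labelled tissue showed its own defining transcripts at both times, with Adam7 at 14.26 and 14.16, Penk at 13.98 and 13.71 and Cst8 at 13.23 and 12.58 (6 h and 18 h means, n = 4). Of the sperm and spermatid transcripts listed, 11 were below the filter, among them Prm1, Prm2 and Tnp1. In bulk tissue, fewer cells of a type and less RNA per cell cannot be told apart.

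The 8 arrays divided in 2 ways, by time and by replicate number. The first principal component held 37.9% of the variance and separated 6 h from 18 h, and the second held 31.6% and separated replicates 1 and 2 from replicates 3 and 4 at both times. Between these 2 subsets of the replicate numbers 2135 probe sets differed (16.4% of those tested, 892 higher and 1243 lower in replicates 3 and 4). Of 14 tested fibroblast marker genes, 13 were lower in replicates 3 and 4. The dap control transcript read 7.94 and 7.98 in replicates 3 and 4 of 6 h and 2.22, the lowest value of the table, in the other 6 arrays. Each subset holds both times, so values within each subset are given beside the pooled ones, and a fit with the subset as a term is called the subset block. A test of whether the 6 h to 18 h difference itself differed between the subsets called 0 probe sets with limma (982 at an unadjusted p under 0.05).

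**Figure D1:**
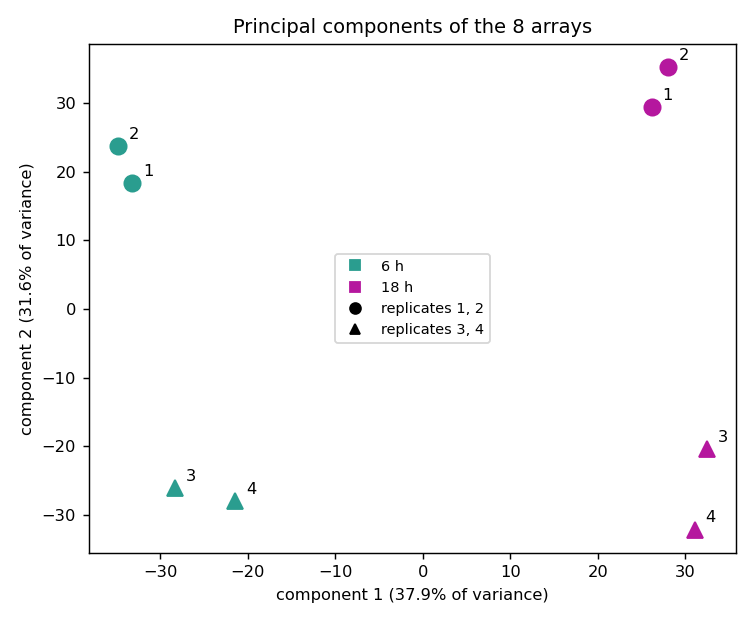
Principal components of the 8 arrays over the 12995 tested probe sets, with component 1 on the horizontal axis and component 2 on the vertical axis, in score units. Colour gives the time, shape the subset and the number the replicate. The 6 h arrays lie between -34.8 and -21.4 and the 18 h arrays between 26.2 and 32.5 on component 1, while replicates 1 and 2 lie above 0 and replicates 3 and 4 below 0 on component 2.

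Between 6 h and 18 h transcripts of the 3 PEA3 factors, the Wnt inhibitor Nkd2, the aquaporin Aqp9 and the riboflavin transporter Slc52a3 fell. Those of 13 immediate early genes, the keratin Krt17, the metalloproteinase Mmp7, the chemokine Ccl2 and the catalytic immunoproteasome subunits rose. By limma 868 probe sets differed (6.68% of those tested), 378 higher and 490 lower at 18 h. In genes this was 600 of 8173 (7.34%), with 287 that rose (3.51%) and 313 that fell (3.83%). All 600 had the same sign within replicates 1 and 2 and within replicates 3 and 4, and in 286 of the rises and 312 of the falls the 4 arrays of one time did not overlap those of the other, which the call itself makes likely. Over all 8173 tested genes the arrays did not overlap for 649 that were higher and 726 that were lower at 18 h. A difference of at least 2-fold was seen for 144 of the rises and 125 of the falls, and of at least 4-fold for 27 and 39. Of the called genes, 31 rises and 23 falls had 1 mean under 5, so they entered the test through the other group alone. With the subset block 1201 genes were called (14.7%), 603 rises (7.38%) and 598 falls (7.32%), all 600 among them. With the replicate number as a block 1590 probe sets were called, and of the 8173 genes 553 rose and 510 fell. Both blocks raised the calls over all genes, so list counts under a block are to be set against these counts. List counts without a block are to be set against 3.51% for rises and 3.83% for falls. The count of 868 went to 405, 419, 460 and 615 without replicates 1 to 4 of 6 h in turn. It went to 472, 566 and 542 without replicate 1, 2 or 3 of 18 h, and up to 1069 without replicate 4 of 18 h. Within replicates 1 and 2 alone 301 probe sets were called, and within replicates 3 and 4 alone 0 were called by limma (2383 at an unadjusted p under 0.05), with 2 arrays a group in each.

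The transcripts of the 3 PEA3 factors fell together, while the other ERK output genes did not pass the test apart from Ccnd1. Etv4 read 10.96, 10.52, 10.83 and 10.84 in replicates 1 to 4 at 6 h and 6.73, 6.72, 8.47 and 7.81 at 18 h. Every 18 h array lay below every 6 h array, with the 2 higher 18 h values in replicates 3 and 4. Etv4 fell by 3.36 on the log2 scale (SE 0.39), 10.2-fold, with an adjusted p of 0.0036 by limma. Etv5 read 7.25, 8.92, 7.88 and 8.32 at 6 h and 5.57, 5.51, 4.95 and 4.36 at 18 h, without overlap, and fell by 3.00 (SE 0.40, adjusted p = 0.00576). Etv1 read 9.04, 9.08, 9.30 and 8.74 at 6 h and 6.61, 6.74, 7.25 and 7.28 at 18 h. The times did not overlap here either, and Etv1 fell by 2.07 (SE 0.19, adjusted p = 0.00134). The other tested probe sets of these genes, 1 for Etv4 and 3 for Etv1, were called in the same direction. All 3 factors were called in each of the 8 fits that left out 1 array.

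The other members of the ERK output list set the PEA3 factors apart in size. Of its 11 tested genes, 0 rose and 4 fell (5 with the subset block), with a median difference of -0.37 against 0.01 over all tested genes, and 5 more were below the filter. Ccnd1, the G1 cyclin, fell by 0.90 (SE 0.20, adjusted p = 0.0401) and was called in 1 of the 8 fits without 1 array (highest adjusted p 0.101, without 6 h replicate 2). The tested phosphatases and inhibitors that feed back on ERK did not pass the test, and Dusp4 and Spred3 were below the filter. The largest difference among them was that of the phosphatase Dusp7, -0.57 (SE 0.20, adjusted p = 0.141), with -0.93 and -0.21 within the subsets. Dusp6, which dephosphorylates ERK in the cytoplasm, read 7.41 ± 0.21 at 6 h and 7.76 ± 0.43 at 18 h (SD, n = 4), a difference of 0.34 with an adjusted p of 0.409. For Dusp5, the nuclear ERK phosphatase, the difference was 0.13 (SE 0.23, adjusted p = 0.796), and for the receptor pathway inhibitor Spry4 it was -0.12 (SE 0.13, adjusted p = 0.663). These 3 genes had opposite signs within the subsets, 0.77 and -0.08 for Dusp6, 0.42 and -0.16 for Dusp5, and 0.03 within replicates 1 and 2 for Spry4.

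The list of initial segment and epididymal secreted genes did not move as a group. It holds genes of both kinds, so its count is not one of initial segment genes alone. Of its 38 genes 16 had a probe set. Of 15 tested members, 4 rose and 3 fell, with a median difference of -0.14. Those that fell were Nkd2, Ggt1 and Ros1, and those that rose were Rnase12, Cd52, Wfdc2 and Clu. Nkd2, an inhibitor of Wnt signalling, read 10.26, 10.40, 9.93 and 10.42 at 6 h and 5.77, 5.56, 6.14 and 6.36 at 18 h. The 2 times lay far apart with little spread, and the difference of -4.30 (SE 0.20, 19.6-fold lower) had an adjusted p of 7.53e-05. Ggt1, a gamma-glutamyl transferase of the apical membrane, read 12.39, 12.50, 12.34 and 12.30 at 6 h and 11.34, 11.66, 11.83 and 11.52 at 18 h. It fell by 0.79 (SE 0.12, adjusted p = 0.00992), and the related Ggt5 fell by 2.38 (SE 0.33, adjusted p = 0.00699), from 11.97 ± 0.01 to 9.58 ± 0.75 (SD, n = 4). The orphan receptor kinase Ros1 fell by 0.64 (SE 0.13, adjusted p = 0.0302, and 0.0777 without 18 h replicate 1).

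Among the secreted products of the duct the differences ran both ways. Cst8, a cystatin of the epididymal lumen, read 13.04, 13.14, 13.88 and 12.87 at 6 h and 12.46, 12.42, 13.03 and 12.40 at 18 h. The groups overlapped through replicate 3 of 18 h, and the difference of -0.65 (SE 0.24) had an adjusted p of 0.160, but 0.0176 with the replicate number as a block. With that block 5 members of the list fell and 5 rose. Rnase12, an epididymal member of the ribonuclease A family, read 6.42, 6.53, 6.72 and 10.12 at 6 h and 10.40, 10.47, 10.71 and 11.77 at 18 h. Replicate 4 was the highest array at both times and lay near the 18 h level already at 6 h. Rnase12 rose by 3.39 (SE 0.82, adjusted p = 0.0487), Cd52 by 1.18 (SE 0.27, adjusted p = 0.0434), Wfdc2 by 1.03 (SE 0.22, adjusted p = 0.0313) and Clu by 0.49 (SE 0.12, adjusted p = 0.0481). These 4 rises depended on single arrays, since the count was 0 without replicate 1 or 2 of 6 h or replicate 1, 3 or 4 of 18 h, 1 without replicate 3 of 6 h or replicate 2 of 18 h, and 2 without replicate 4 of 6 h.

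**Figure D2:**
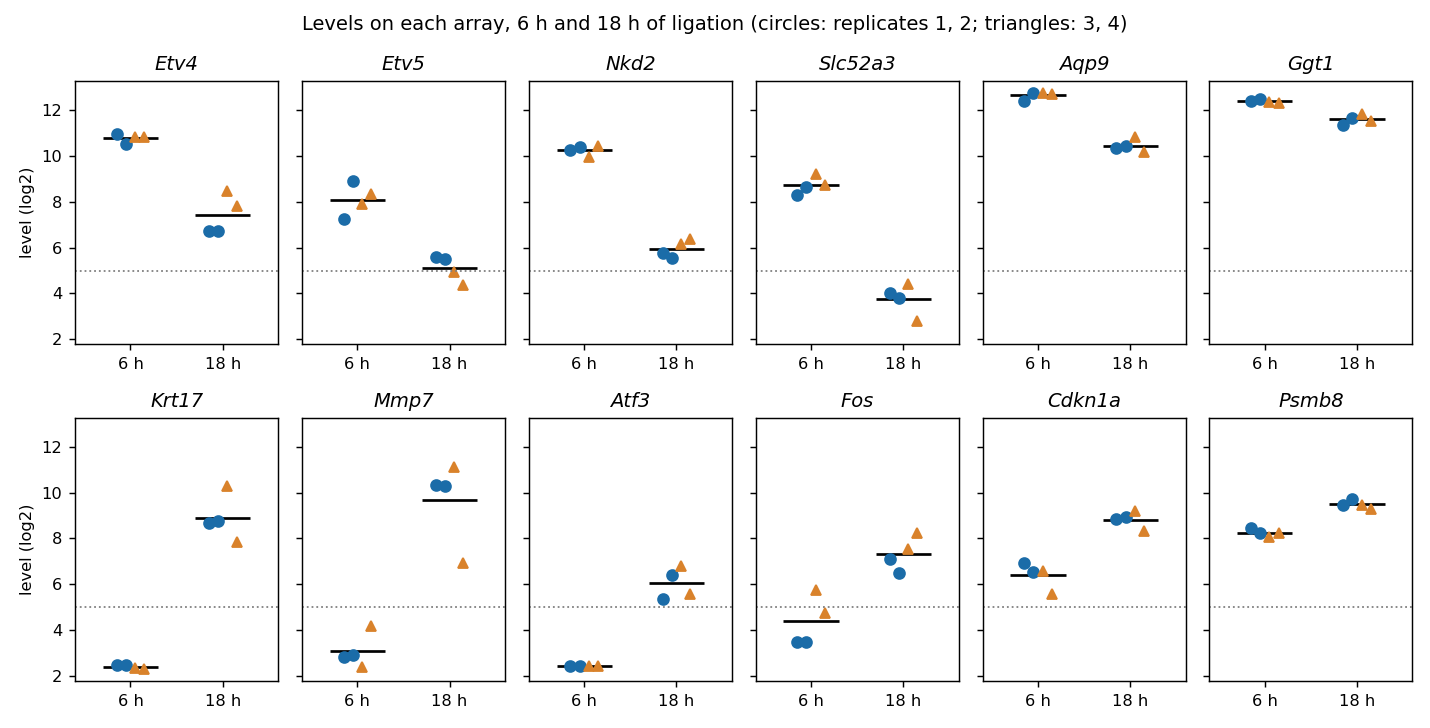
Level of 12 genes on each of the 8 arrays, in log2 units on the vertical axis, at 6 h and 18 h, with circles for replicates 1 and 2, triangles for replicates 3 and 4 and a bar at the mean of 4 arrays. The dotted line at 5 marks the level under which a mean was taken as background. In each of the 12 genes the 4 arrays of one time lie apart from the 4 of the other, from Etv4, which goes from 10.79 to 7.43, to Krt17, which goes from 2.41 to 8.90.

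The steepest losses included membrane transporters and enzymes. Slc52a3, a riboflavin transporter, read 8.28, 8.64, 9.19 and 8.72 at 6 h and 4.03, 3.81, 4.41 and 2.78 at 18 h. All 18 h arrays were in the background range, so the fall was at least 3.71 on the log2 scale, at least 13.1-fold, with an adjusted p of 0.000431. Aqp9, the aquaporin of the apical membrane that passes water and small neutral solutes, read 12.38, 12.72, 12.74 and 12.71 at 6 h and 10.33, 10.42, 10.84 and 10.18 at 18 h. It fell by 2.19 (SE 0.16, 4.58-fold, adjusted p = 0.00052), with -2.17 and -2.22 within the 2 subsets, and was the only 1 of 14 tested genes of water, acid-base and ion transport to pass the test. With the subset block or the replicate block 2 of those 14 fell. Of 16 tested solute carriers, 3 rose and 2 fell. Slc1a1, which takes up glutamate and cysteine, fell by 1.42 (SE 0.17, adjusted p = 0.00374), whereas Slc16a1, a carrier of lactate and other monocarboxylates, rose by at least 1.61 (adjusted p = 0.00583).

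Further large falls, taken in order of size among genes whose groups did not overlap, covered metabolism and signalling. Cmahp read 10.91, 11.32, 11.88 and 11.05 at 6 h and 6.53, 6.06, 7.42 and 4.18 at 18 h, and fell by 5.24 (SE 0.62, 37.8-fold, adjusted p = 0.004). Gk, glycerol kinase, fell by 3.45 (SE 0.24, adjusted p = 0.000431), but its other tested probe set gave -1.10 and was not called. Slc41a3, of a magnesium transporter family, fell by 3.69 (SE 0.36, adjusted p = 0.00166). Hey2, a transcriptional repressor induced by Notch signalling, went from 7.64 ± 0.16 to 3.97 ± 0.96 (SD, n = 4), a fall of at least 2.64 (adjusted p = 0.00374). Acy3, an aminoacylase, fell by at least 1.86 (adjusted p = 0.000163). Pde1b, a phosphodiesterase activated by calmodulin, fell by at least 3.02 (adjusted p = 0.00125), and its other tested probe set was also called lower. Shc4, an adaptor of receptor kinases, fell by at least 2.18 (adjusted p = 0.0165, and 0.0537 without 6 h replicate 2), and Lat, an adaptor best known in T cells, fell by 3.32 (SE 0.57, adjusted p = 0.0148, and 0.0525 without 6 h replicate 1). Also among them were Slc12a8 (at least 2.73, adjusted p = 0.000521) and Mogat1, an acyltransferase of lipid synthesis (at least 1.47, adjusted p = 0.00823).

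Of 33 listed growth factors and receptors 17 were tested, and 2 passed the test. The other 16 were below the filter, among them the ligands Fgf2, Fgf10, Hbegf, Areg and Tgfa. Fgf1, a ligand of the FGF receptors, read 9.38, 9.04, 8.05 and 8.80 at 6 h and 7.20, 6.37, 7.51 and 7.19 at 18 h. Its groups did not overlap, and it fell by 1.75 (SE 0.33, adjusted p = 0.0202), with a fall at its second probe set too. Fgf1 was called in 4 of the 8 fits that left out 1 array (highest adjusted p 0.0638, without 6 h replicate 2). Pdgfrl, a gene similar to the PDGF receptors, fell by 3.34 (SE 0.39, adjusted p = 0.00374). Of the 17 tested 0 rose and 2 fell, with differences from -3.34 to 1.02 and 7 at an unadjusted p under 0.05 by limma. With the subset block or the replicate block 3 rose and 3 fell. Of 25 tested genes of the TGF-beta, Notch and Wnt pathways 1 fell, Bmp7, by 0.63 (SE 0.15, adjusted p = 0.0497), and that call was lost in each of the 8 fits that left out 1 array (highest adjusted p 0.109, without 18 h replicate 2). This list leaves out Nkd2, counted with the initial segment genes, and Hey2, which was in no list, and both of these fell.

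An injury-linked protease and a keratin went from the background range to high levels. Mmp7, matrilysin, which cleaves matrix and cell surface proteins, read 2.84, 2.90, 2.41 and 4.18 at 6 h and 10.33, 10.30, 11.13 and 6.95 at 18 h. All 6 h arrays were in the background range, and replicate 4 of 18 h was well below the other 18 h arrays. The rise was at least 4.68 on the log2 scale, at least 25.6-fold, with an adjusted p of 0.00572. Krt17, a keratin of stressed and wounded epithelia, read 2.49, 2.49, 2.35 and 2.31 at 6 h and 8.69, 8.77, 10.27 and 7.86 at 18 h. It was not told from background at 6 h and clearly above it on every 18 h array, a rise of at least 3.90 (14.9-fold, adjusted p = 0.000431).

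Other keratin and junction genes followed in part. Of 27 tested members 5 rose and 1 fell (6 and 2 with the subset block), and 3 rose without 6 h replicate 2. Krt7, a keratin of simple epithelia, read 6.83, 6.84, 6.75 and 6.60 at 6 h and 9.06, 9.14, 9.73 and 7.94 at 18 h, and rose by 2.21 (SE 0.33, adjusted p = 0.00992). Krt14, a basal cell keratin, rose by 0.91 (SE 0.17, adjusted p = 0.0179, and 0.0530 without 6 h replicate 2). The basal cell keratins Krt5 and Krt15 gave 0.02 and 0.16 with no call. Cldn4, a claudin of tight junctions, rose by 1.35 (SE 0.19, adjusted p = 0.00699), and Cldn10, another claudin, fell by 2.24 (SE 0.37, adjusted p = 0.0124). Krt79, a keratin outside the list, fell by at least 3.26 (adjusted p = 0.00268). It read 7.96, 7.75, 9.16 and 8.15 at 6 h and 3.10, 2.87, 5.0 and 2.87 at 18 h.

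In the wider list of injury, protease and matrix genes, 4 of 19 tested members rose and 0 fell, with a median of 0.63. Besides Mmp7 these were Plau, the urokinase protease (by 1.72, SE 0.37, adjusted p = 0.0336, and 0.0984 without 6 h replicate 1), S100a6, a calcium-binding protein (by 0.89, SE 0.16, adjusted p = 0.0157, and 0.0524 without 6 h replicate 2), and Clu. The count was 1 without replicate 1 or 2 of 6 h, 2 without replicate 4 of 6 h or replicate 1, 2 or 3 of 18 h, and 8 without replicate 4 of 18 h. It was 11 with the subset block and 10 with the replicate block. Over all 8173 tested genes 287 rose without a block, 603 with the subset block and 553 with the replicate block. That array, replicate 4 of 18 h, was also the lowest of the 18 h group for Mmp7, Krt17, Krt7 and Plau.

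**Figure D3:**
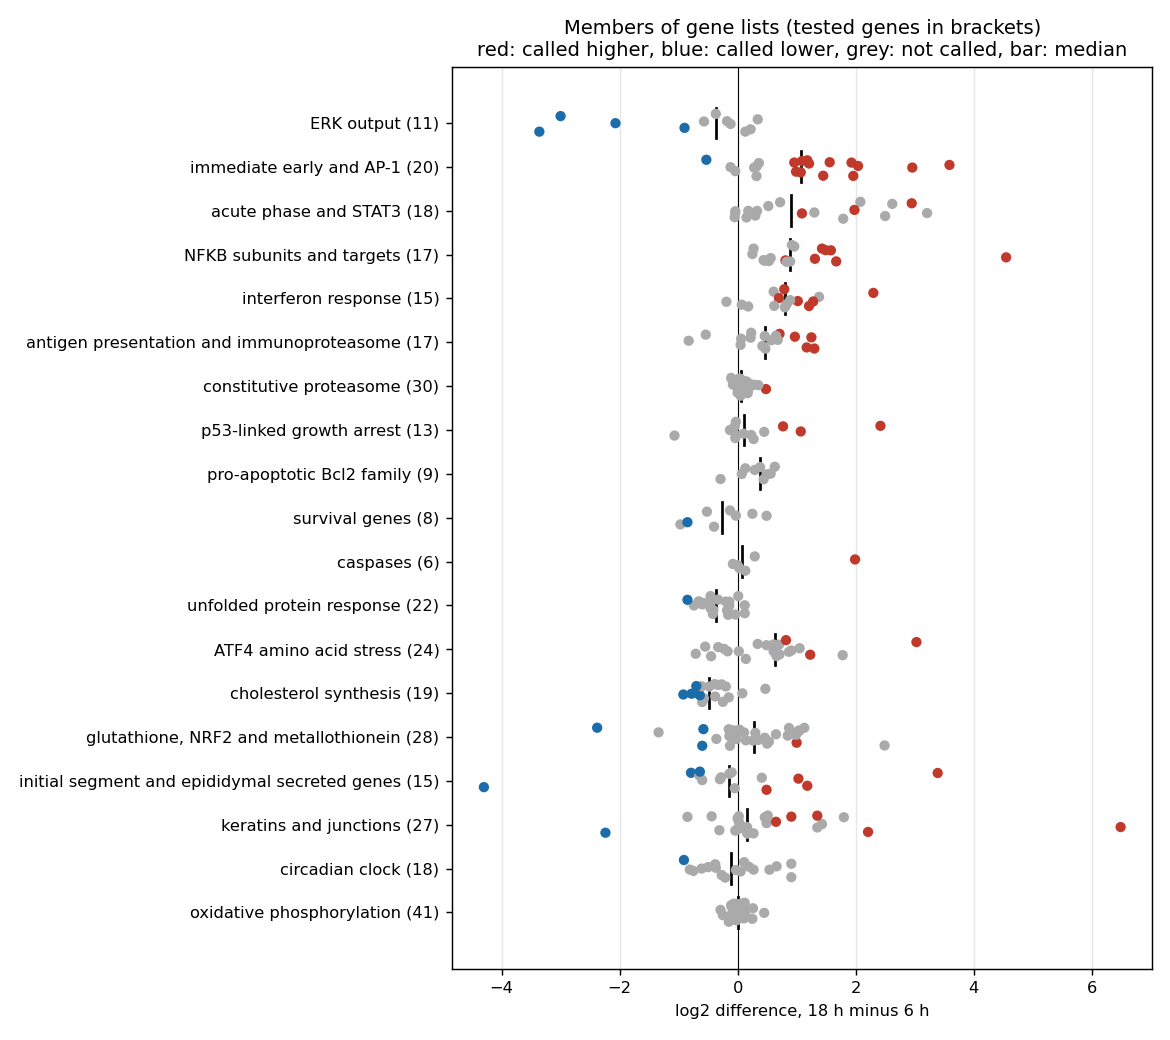
Log2 difference, 18 h minus 6 h, of every tested member of 19 gene lists, with 1 point per gene, the number of tested genes in brackets, and a black bar at the median of each list. Red points rose, blue points fell and grey points did not pass the test. Values are as measured, also where a mean is under 5. Immediate early genes lie mostly to the right with a median of 1.08, cholesterol synthesis genes mostly to the left with a median of -0.48, and oxidative phosphorylation genes close to 0.

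Immediate early genes, the transcription factors and regulators that cells switch on within minutes of a stimulus, rose as the most heavily called list. Of 20 tested members 13 rose and 1 fell, with a median difference of 1.08 against 0.01 over all tested genes, and 5 more were below the filter. Atf3, a stress-induced member of the ATF and AP-1 families, read 2.45 on all 4 arrays of 6 h and 5.34, 6.42, 6.81 and 5.57 at 18 h. It went from the background range to a level above it on every 18 h array, a rise of at least 1.04. The adjusted p of 0.001 by limma belongs to the measured difference, from 4 equal 6 h readings without spread, not to that bound. Fos, an AP-1 subunit, read 3.50, 3.50, 5.76 and 4.73 at 6 h and 7.12, 6.48, 7.52 and 8.23 at 18 h. The groups did not overlap, replicates 3 and 4 being higher at both times, and Fos rose by at least 2.34 (adjusted p = 0.0221, and 0.0659 without 6 h replicate 1). Egr1, a zinc finger factor induced by ERK, read 7.19, 7.18, 7.99 and 7.31 at 6 h and 9.38, 9.54, 9.44 and 9.46 at 18 h. It rose by 2.04 (SE 0.18, 4.1-fold, adjusted p = 0.00118), in the tissue in which the PEA3 factors fell.

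Dusp1, a phosphatase that acts mainly on the stress kinases p38 and JNK, rose by 1.96 (SE 0.37, adjusted p = 0.0203) and was called in 2 of the 8 fits without 1 array (highest adjusted p 0.065, without 6 h replicate 1). The growth regulator Myc rose by at least 1.38 (adjusted p = 0.0121). The Jun partner genes Jun (1.21) and Junb (1.07) and the mRNA decay factor Zfp36 (1.18) were among the other rises, all named here after their values were seen, while Egr2 fell by 0.53 (SE 0.11, adjusted p = 0.0322, and 0.0942 without 6 h replicate 1). The count of 13 was 14 with the subset block, and went to 5, 7 and 7 without replicate 1, 2 or 4 of 6 h and to 7 and 8 without replicate 1 or 3 of 18 h. Outside the list, Klf5, a Krüppel-like factor of proliferating and injured epithelium, rose by at least 2.71 (adjusted p = 0.00945).

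The RefSeq promoter windows of the rat assembly GRCr8, 250 bases before to 50 after each gene start, held the CArG box, the site of serum response factor, in 4 of the 9 called immediate early genes with an entry (Egr1, Klf6 and Zfp36, which rose, and Egr2, which fell), in 0 of 4 that did not pass the test, and in 1.64% of all 33469 windows on either strand. Egr1 is shown because it holds a pair of them in a stretch at chr18:26736953-26737024 (plus strand, GRCr8), with capitals at the matches.
Egr1: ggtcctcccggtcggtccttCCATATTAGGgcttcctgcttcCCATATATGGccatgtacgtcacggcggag
A match is a description of the letters in this window, not of binding.

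Acute phase and STAT3 genes, which liver and epithelia raise in response to interleukin 6 type cytokines, had large but variable differences. Of 18 tested members 3 rose and 0 fell, with a median of 0.91, and 6 rose with the subset block and 5 with the replicate block. Fga, a fibrinogen chain, read 6.50, 7.49, 7.80 and 8.20 at 6 h and 10.77, 10.99, 11.41 and 8.63 at 18 h. The groups did not overlap, but replicate 4 of 18 h lay close to replicate 4 of 6 h, and Fga rose by 2.95 (SE 0.62, adjusted p = 0.0308, and 0.0849 without 18 h replicate 1). The partner chain Fgg read 5.12, 7.11, 7.72 and 8.53 at 6 h and 10.36, 10.86, 11.43 and 8.68 at 18 h, a difference of 3.21 (SE 0.81) that did not pass the test (adjusted p = 0.0559, and 0.0405 with the subset block). Cebpd, a transcription factor of the acute phase response, read 5.93, 6.45, 6.56 and 6.39 at 6 h and 8.34, 8.70, 8.15 and 8.06 at 18 h, and rose by 1.98 (SE 0.18, adjusted p = 0.00134). Cish, a feedback inhibitor of cytokine receptors, rose by at least 0.76 (adjusted p = 0.00699). Without replicate 4 of 18 h 8 members of the list rose. The count was 2 without replicate 1, 2 or 3 of 6 h or replicate 1, 2 or 3 of 18 h. Stat3 itself gave 1.30 (SE 0.33, adjusted p = 0.0557, and 0.0140 with the subset block and 0.0227 with the replicate block), and was named after its value was seen.

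NFKB is a family of transcription factors that inflammatory signals release into the nucleus. All 17 tested subunits and targets had a positive difference, with a median of 0.89, and 7 rose (13 with the subset block), against 3.51% of all genes. Ccl2, a chemokine that draws monocytes, read 4.73, 6.16, 3.73 and 3.36 at 6 h and 9.22, 10.76, 8.77 and 7.42 at 18 h. The 2 times did not overlap, and Ccl2 rose by at least 4.04 (adjusted p = 0.0166, and 0.0523 without 6 h replicate 3). Nfkbia, which encodes the inhibitor that holds NFKB in the cytoplasm and is itself a target of it, read 8.12, 7.85, 8.13 and 8.01 at 6 h and 8.58, 8.93, 8.89 and 8.95 at 18 h. Its rise of 0.81 (SE 0.12, adjusted p = 0.00835) was small but free of overlap.

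Icam1, an adhesion molecule for leukocytes, rose by 1.49 (SE 0.36, adjusted p = 0.0469, and 0.121 without 6 h replicate 3), and Bcl3, a nuclear partner of NFKB subunits, by 1.67 (SE 0.40, adjusted p = 0.0487, and 0.126 without 6 h replicate 3). Relb, an NFKB subunit, rose by at least 0.79 (adjusted p = 0.0166, and 0.0549 without 6 h replicate 1), and Birc3, an inhibitor of cell death, by at least 0.89 (adjusted p = 0.0186, and 0.0584 without 6 h replicate 1). The count of 7 went to 2, 3, 3 and 4 without replicates 1 to 4 of 6 h in turn, and to 1, 3 and 4 without replicate 1, 2 or 3 of 18 h. Markers of macrophages and dendritic cells had a median difference of 0.63 beside these rises, and their part in them was not tested.

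All 3 catalytic subunits of the immunoproteasome and the peptide transporter subunit Tap1 rose, with little spread between arrays. Tap1, which carries peptides into the endoplasmic reticulum for loading on class I molecules, read 5.91, 6.12, 6.12 and 5.99 at 6 h and 7.54, 7.28, 7.22 and 7.30 at 18 h. Psmb8, a catalytic subunit of the immunoproteasome, read 8.44, 8.23, 8.08 and 8.22 at 6 h and 9.47, 9.73, 9.47 and 9.28 at 18 h. In both genes the gap between the times was wider than the range within either time. Tap1 rose by 1.30 (SE 0.10, 2.46-fold, adjusted p = 0.000656) and Psmb8 by 1.25 (SE 0.12, 2.37-fold, adjusted p = 0.00182). The other 2 catalytic subunits, Psmb9 and Psmb10, rose by 1.17 (SE 0.12, adjusted p = 0.00176) and 0.97 (SE 0.10, adjusted p = 0.00191), and Psme2, a subunit of the proteasome activator, rose by 0.71 (SE 0.15, adjusted p = 0.0272). All but Psme2 were called in each of the 8 fits without 1 array, and Psme2 in 4 of them (highest adjusted p 0.0839, without 6 h replicate 1).

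Of 17 tested antigen presentation genes 5 rose and 0 fell (7 rose with the subset block, and 9 rose and 1 fell with the replicate block). In all, 15 of the 17 differences were positive, with a median of 0.47. Members that did not pass the test included Tapbp, which bridges the transporter and class I molecules (0.68), Tap2, the partner of Tap1 (0.65, adjusted p = 0.112, but 0.0241 with the subset block and 0.0403 with the replicate block) and Psme1, the partner of Psme2 (0.47, adjusted p = 0.0777, but 0.0251 and 0.0236 with these blocks). B2m, the light chain of class I molecules, gave 0.06, and the only negative differences were those of the class II genes RT1-DMa (-0.83) and RT1-DMb (-0.54). Of 30 tested genes of the constitutive proteasome 1 rose, Psma3, by 0.48 (SE 0.09, adjusted p = 0.0238, and 0.0661 without 6 h replicate 3), and their median difference was 0.07.

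Interferon response genes rose in 6 of 15 tested cases and fell in 0, with a median of 0.80 and 9 rises with the subset block. Irf1, a transcription factor of the interferon response, read 8.61, 8.73, 8.27 and 8.36 at 6 h and 9.56, 9.72, 9.46 and 9.29 at 18 h, and rose by 1.02 (SE 0.14, adjusted p = 0.00685). Isg15, a ubiquitin-like protein, read 3.78, 4.06, 5.90 and 4.06 at 6 h and 7.17, 6.38, 7.10 and 6.34 at 18 h, a rise of at least 1.75 (adjusted p = 0.0267, and 0.0794 without 6 h replicate 1). Replicate 3 of 6 h stood above the other 6 h arrays. Gbp2, a guanylate-binding protein, rose by 1.21 (SE 0.28, adjusted p = 0.0438, and 0.111 without 18 h replicate 1), and the immunity GTPase Igtp by 1.28 (SE 0.30, adjusted p = 0.0467, but 0.0607 with the replicate block and 0.118 without 6 h replicate 2). Mx2, an antiviral GTPase, rose by at least 0.60 (adjusted p = 0.0473), which was lost in all 8 fits without 1 array (highest adjusted p 0.118, without 18 h replicate 1). The count of 6 went to 2 without replicate 1, 2 or 4 of 6 h and to 2 without replicate 1, 2 or 3 of 18 h. Ubd, which encodes a ubiquitin-like protein induced by interferon and tumour necrosis factor, read 4.94, 5.40, 7.49 and 6.81 at 6 h and 9.50, 9.52, 10.79 and 8.07 at 18 h and rose by 3.31 (SE 0.71, adjusted p = 0.0321, and 0.0903 without 6 h replicate 2).

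In the same RefSeq promoter windows, the interferon regulatory factor motif GAAANNGAA, searched on both strands, was present in 4 of the 5 antigen presentation genes that rose, in 3 of 10 that did not pass the test and in 9.71% of all windows. The matches shown are those of Tap1, Psmb10 and Psme2, which lie wholly before the start. The match of Psmb8 spans its start, from base -3 to 5, and Psmb9 had no match within its window, which reaches only 250 bases upstream. Irf1 is shown too, and holds a STAT-type GAS motif (TTCNNNGAA, in 8.87% of all windows) and an NFKB motif (in 4.18%). In the NFKB list the NFKB motif was in 2 of 4 genes that rose and 6 of 10 that did not pass the test, and in the acute phase list the GAS motif was in 2 of 2 and 1 of 12. Capitals mark the matches. The stretches lie at chr20:4668635-4668683 (Tap1, minus strand), chr19:50743293-50743385 (Psmb10, minus strand), chr15:33052776-33052824 (Psme2, minus strand) and chr10:38417773-38417899 (Irf1, plus strand), all in GRCr8 and each upstream of its gene's start.
Tap1: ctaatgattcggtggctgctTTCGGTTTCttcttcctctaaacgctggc
Psmb10: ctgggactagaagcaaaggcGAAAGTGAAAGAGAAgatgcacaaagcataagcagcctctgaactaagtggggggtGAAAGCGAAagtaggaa
Psme2: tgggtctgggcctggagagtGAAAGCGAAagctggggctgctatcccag
Irf1: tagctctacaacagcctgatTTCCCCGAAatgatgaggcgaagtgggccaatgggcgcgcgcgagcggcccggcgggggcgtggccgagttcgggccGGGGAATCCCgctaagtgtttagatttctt
In Psmb10 the first run of capitals holds 2 overlapping matches. The starts of Psmb9 and Tap1 lie 457 bases apart in opposite directions, and both genes rose by a similar size. The Tap1 match lies between these starts, outside the window of Psmb9. Among interferon response genes the motif was in 2 of 4 that rose and 4 of 7 that did not pass the test.

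Growth arrest genes rose in part, and the death genes of the Bcl2 family did not pass the test. Cdkn1a, the cyclin kinase inhibitor p21, read 6.91, 6.52, 6.58 and 5.57 at 6 h and 8.84, 8.94, 9.18 and 8.31 at 18 h. Every 18 h array was above every 6 h array, and Cdkn1a rose by 2.42 (SE 0.30, 5.36-fold, adjusted p = 0.00496), the largest of the 3 rises among 13 tested p53-linked genes. Gadd45a, a stress sensor of DNA damage and arrest, rose by 0.77 (SE 0.12, adjusted p = 0.0122), and Gadd45b by at least 1.01 (adjusted p = 0.0456, and 0.122 without 6 h replicate 1). The p53 targets Mdm2 and Ccng1 gave -0.05 and -0.03, and the median of the list was 0.10. The lowest member was Sesn1, a stress-induced inhibitor of growth signalling, whose groups did not overlap (-1.07, SE 0.27, adjusted p = 0.0587, but 0.0402 with the subset block).

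The 9 tested pro-apoptotic Bcl2 family genes and partners had a median of 0.38 and 8 positive differences, with 0 called by limma (3 at an unadjusted p under 0.05). Bcl2l11, which encodes the death protein Bim, read 7.35, 6.86, 6.85 and 6.72 at 6 h and 7.40, 7.13, 8.18 and 7.58 at 18 h. The groups overlapped, and the difference of 0.63 (SE 0.24) had an adjusted p of 0.168. Apaf1, a component of the apoptosome, gave 0.38 (SE 0.12, adjusted p = 0.106, but 0.0394 with the replicate block, under which 2 members rose). With the subset block 1 member fell, Bnip3l, a mitophagy receptor (-0.29, adjusted p = 0.0479). Of 8 tested survival genes 1 fell, Bag1, a partner of Bcl2 and Hsp70, by 0.85 (SE 0.13, adjusted p = 0.00974), and 3 fell with the subset block or the replicate block. Of 6 tested caspases 1 rose, Casp4, which acts in inflammation and lytic death, by at least 1.75 (adjusted p = 0.0106), with 4.71, 4.79, 5.02 and 4.54 at 6 h and 6.93, 6.81, 7.43 and 5.84 at 18 h.

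A minority of the amino acid response genes rose, though a larger share than over all genes. Slc7a11, the cystine carrier that feeds glutathione synthesis, read 6.01, 5.43, 6.83 and 6.40 at 6 h and 9.01, 9.58, 10.01 and 8.18 at 18 h. It rose by 3.03 (SE 0.43, 8.15-fold, adjusted p = 0.00756). Of the 24 tested genes linked to the factor ATF4, 3 rose (12.5%, against 3.51% of all genes), with a median of 0.62. The other 2 were Wars1, a tRNA synthetase also known as an interferon target (by 1.23, SE 0.18, adjusted p = 0.00874), and Shmt2, a mitochondrial enzyme of serine metabolism (by 0.82, SE 0.17, adjusted p = 0.0289, and 0.0863 without 6 h replicate 1). With the subset block 7 rose and 4 fell, and with the replicate block 9 rose. Atf4 itself gave 0.14. In this list 15 of the 24 genes had an unadjusted p under 0.05 by limma, against 1933 of all 8173.

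Of 19 tested genes of cholesterol synthesis 6 fell and 0 rose, with a median of -0.48. Msmo1, a sterol oxidase, read 11.41, 11.14, 11.23 and 11.24 at 6 h and 10.02, 10.52, 10.41 and 10.39 at 18 h, and Fdft1, squalene synthase, read 9.69, 9.38, 9.60 and 9.51 at 6 h and 8.81, 8.84, 8.73 and 8.65 at 18 h. Both were lower on all 18 h arrays, Msmo1 by 0.92 (SE 0.13, adjusted p = 0.00699) and Fdft1 by 0.78 (SE 0.10, adjusted p = 0.00496). Smaller falls, each called in 1 or 2 of the 8 fits without 1 array, were those of Tm7sf2 (0.70, highest adjusted p 0.11, without 6 h replicate 3), Idi1 (0.66, 0.0903, without 6 h replicate 1) and Sc5d (0.65, 0.111, without 6 h replicate 1). The count of 6 went to 2 without replicate 1, 3 or 4 of 6 h, to 3 without replicate 2 of 6 h and to 3 without replicate 1, 2 or 3 of 18 h, and was 9 with the subset block. In fatty acid synthesis, where 2 of 14 tested genes rose and 1 fell, the desaturase Scd2 fell by 0.87 (SE 0.11, adjusted p = 0.00544), while Acss2, which makes acetyl-CoA from acetate, rose by 1.20 (SE 0.18, adjusted p = 0.00965). The count of 2 rises was 4 without 6 h replicate 4 and 1 in each of the other 7 fits without 1 array.

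The unfolded protein response, which raises chaperones of the endoplasmic reticulum when folding fails, gave no rise. Of 22 tested members 0 rose and 2 fell, with a median of -0.37 and only 3 differences above 0. Syvn1, a ubiquitin ligase that clears misfolded proteins, fell by 0.85 (SE 0.19, adjusted p = 0.035, and 0.102 without 6 h replicate 1). Dnajb9, a cochaperone, fell by 0.62 (SE 0.15, adjusted p = 0.0482, but 0.0648 with the replicate block and 0.127 without 6 h replicate 1). The count of 2 was 6 with the subset block and 8 with the replicate block, 1 without 6 h replicate 4, and 0 without replicate 1, 2 or 3 of 6 h or replicate 1, 3 or 4 of 18 h. The main chaperones Hspa5 and Hsp90b1 each gave -0.14.

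Glutathione and antioxidant genes split. Of 28 tested, 2 rose and 3 fell (5 and 5 with the subset block, 4 and 4 with the replicate block). Txnrd1 and Nqo1, both targets of the factor NRF2, rose by 1.00 (SE 0.17, adjusted p = 0.0131) and 1.04 (SE 0.17, adjusted p = 0.0122), and 5 members rose without 18 h replicate 4. Gss, glutathione synthetase, fell by 0.60 (SE 0.13, adjusted p = 0.0293, and 0.0838 without 6 h replicate 1), and Prdx6, a peroxidase, by 0.58 (SE 0.13, adjusted p = 0.0401, and 0.105 without 6 h replicate 2). The count of 3 falls was 1 without replicate 1, 2 or 4 of 6 h or replicate 1 or 2 of 18 h.

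Among hypoxia and glycolysis genes 1 of 23 tested rose and 2 fell. Slc2a1, the glucose carrier, rose by 0.68 (SE 0.12, adjusted p = 0.0145), while the oxygen sensor Egln3 fell by 1.46 (SE 0.31, adjusted p = 0.0333, and 0.0904 without 6 h replicate 1) and the kinase Pdk1 by 0.82 (SE 0.15, adjusted p = 0.0168, and 0.0569 without 6 h replicate 1). With the subset block 4 rose and 5 fell, and with the replicate block 2 rose and 4 fell. Vegfa and Hif1a gave 0.14 and 0.17. The count of 2 falls was 0 without replicate 1 or 3 of 6 h and 1 without replicate 4 of 6 h or replicate 1 or 3 of 18 h. In ribosome biogenesis, Rrp12, a factor of ribosome export, fell by 2.01 (SE 0.18, adjusted p = 0.0011), from 9.60, 9.25, 9.80 and 9.81 to 7.30, 7.90, 7.74 and 7.49, with both other probe sets called lower, while the median of the 21 tested genes was 0.24. The next lowest difference of the list was that of Bop1 (-0.08). With the replicate block 3 members rose in place of 1, and without 18 h replicate 4 it was 5. The count was 0 without replicate 1, 2, 3 or 4 of 6 h or replicate 1 or 3 of 18 h.

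Further groups gave 0 or 1 call each without a block. Where there was 1 call, the share was 7.69% for cell cycle genes and 8.33% for detoxification. It was 12.5% for androgen and glucocorticoid linked genes and 16.7% for reference genes, against 7.34% of all genes. The 41 tested subunits of oxidative phosphorylation had a median at 0, with 0 called by limma (1 at an unadjusted p under 0.05) and all differences between -0.29 and 0.45. Of 10 tested heat shock genes limma called 0 (3 at an unadjusted p under 0.05). With the subset block 1 rose, Dnajb1 (0.41, adjusted p = 0.0466), and 1 fell, and with the replicate block 1 fell. Of 13 tested cell cycle genes 1 fell, Ccnd1 (2 with the replicate block), and 20 more were below the filter, among them Mki67 and Top2a. Of 8 tested androgen and glucocorticoid linked genes 1 rose, Ndrg2, by 0.94 (SE 0.09, adjusted p = 0.00166), and 2 rose with the replicate block or without 18 h replicate 4. In detoxification Fmo2 alone of 12 fell, by 1.33 (SE 0.27, adjusted p = 0.0258, and 0.0801 without 6 h replicate 1). Of 6 reference genes Gusb fell, by 0.43 (SE 0.09, adjusted p = 0.0276, and 0.0753 without 18 h replicate 1).

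Clock genes are reported because the groups may differ in hour of day. Of 18 tested members 1 fell, Hlf, an output gene of the clock, by 0.91 (SE 0.16, adjusted p = 0.015, and 0.0512 without 6 h replicate 2), and 5 fell with the subset block. Per2, a core repressor of the clock, read 6.68, 6.60, 6.64 and 7.15 at 6 h and 5.89, 6.28, 6.33 and 6.11 at 18 h. Its groups did not overlap, and the difference of -0.61 (SE 0.16) had an adjusted p of 0.0575 (0.0323 with the subset block). Dbp, another clock output gene, gave -0.37 (SE 0.22, adjusted p = 0.367). Per1 gave 0.27 (SE 0.36, adjusted p = 0.73) and Bmal1 0.11 (SE 0.13, adjusted p = 0.675), and Nr1d1 did not pass the filter. The part of the clock in the other results was not tested.

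The 12 h levels are given as a description only, with no test of the 12 h group. For the 287 rises the 12 h mean lay at a median of 71.8% of the way from the 6 h to the 18 h mean, and for the 313 falls at 84.0%. The 12 h mean was beyond the 18 h mean for 49 rises and 89 falls, and had covered less than 0.25 of the way for 18 rises and 5 falls. These shares and counts use means under 5 as read. Etv5 read 3.82 ± 1.24 at 12 h (SD, n = 4), which is under 5 and not told from background. Its 18 h mean was 5.10 ± 0.57, so whether Etv5 was lower at 12 h cannot be told. Gadd45a was higher at 12 h (9.34 ± 0.26) than at 18 h (8.62 ± 0.20). The 12 h arrays varied widely for several genes, so that their mean gives no clear position. Slc7a11 ran from 4.41 to 8.96 over the 4 arrays of 12 h, between means of 6.17 at 6 h and 9.19 at 18 h, and Klf5 ran from 4.08 to 7.51. Krt17 ran from 2.41 to 9.36 and Cmahp from 2.56 to 8.27.

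**Figure D4:**
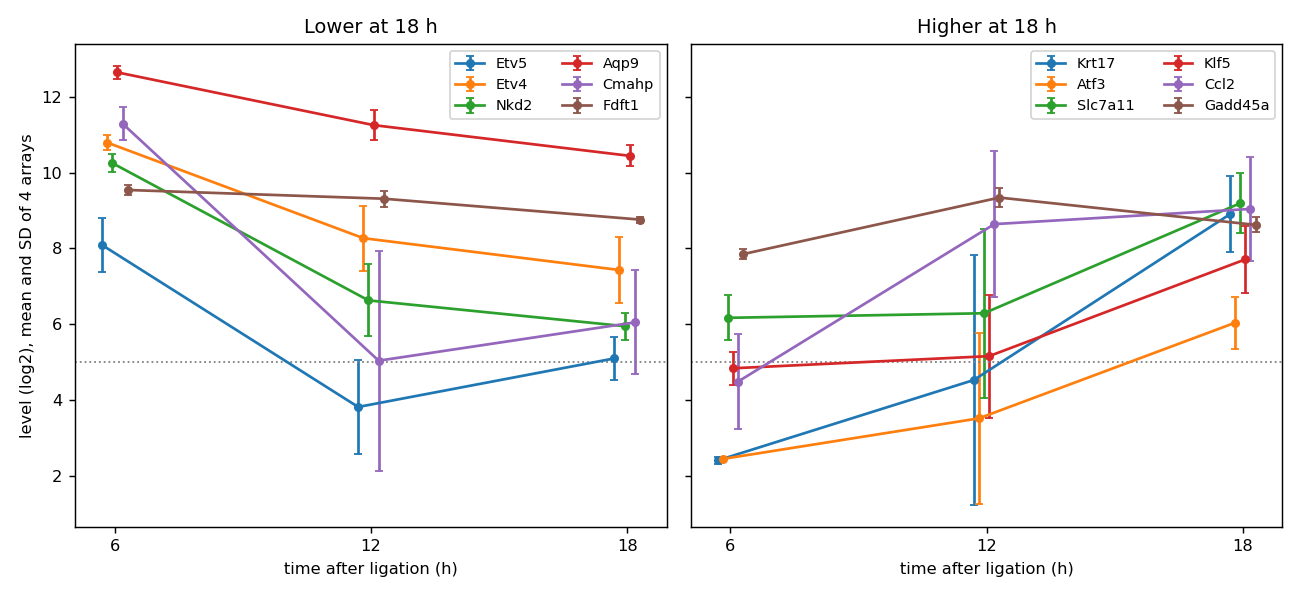
Mean level in log2 units with SD over 4 arrays at 6, 12 and 18 h after ligation for 6 genes that fell (left) and 6 that rose (right) between 6 h and 18 h, points shifted slightly sideways for clarity and the dotted line at 5. Aqp9 and Fdft1 decline in steps (12.64, 11.25 and 10.44 for Aqp9), Slc7a11 has a wide SD at 12 h (2.23), and Gadd45a is highest at 12 h.

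Differences were compared within the 2 subsets of the replicate numbers for every gene. The differences of Nkd2 within replicates 1 and 2 and within replicates 3 and 4 were -4.66 and -3.93, those of Etv4 -4.02 and -2.70, and those of Etv5 -2.54 and -3.45. Fga gave 3.88 within replicates 1 and 2 and 2.02 within replicates 3 and 4. No difference between subsets passed the interaction test.

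**Figure D5:**
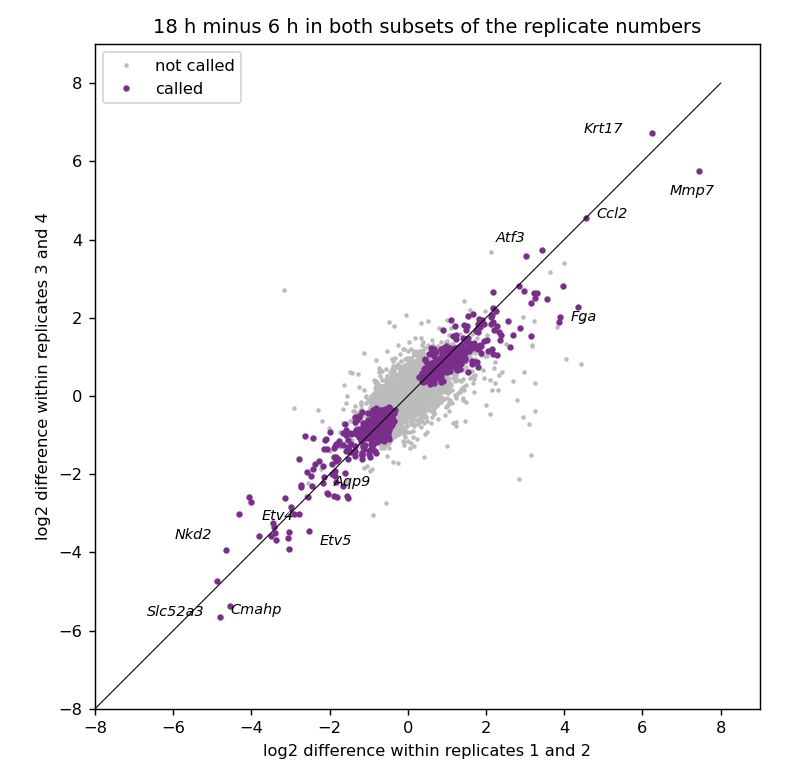
Log2 difference, 18 h minus 6 h, within replicates 1 and 2 (horizontal axis) and within replicates 3 and 4 (vertical axis) for all 8173 tested genes, with the 600 called genes in purple, the others in grey and a line of equality. Values are as measured, so that those of Krt17, Mmp7 and other genes with a mean under 5 are not exact differences. All called genes have the same sign on both axes, from Cmahp and Slc52a3 to Krt17 and Mmp7.

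Markers of other cell types were read beside these results. The 12 tested macrophage and dendritic cell markers all had positive differences with a median of 0.63, but 1 rose, Cd68, by at least 0.70 (adjusted p = 0.0233, 0.054 with the replicate block and 0.0601 without 18 h replicate 1), and 5 rose with the subset block. Their mean level ran from 6.40 to 7.01 on the 6 h arrays and from 6.77 to 7.87 on the 18 h arrays, and Cd163, Adgre1 and Cx3cr1 were below the filter. The 14 tested fibroblast markers had a median of 0.47, with 0 called by limma (1 at an unadjusted p under 0.05), but 7 rose with the subset block and 5 with the replicate block, and their mean level ran from 7.94 to 9.99 at 6 h and from 8.56 to 10.25 at 18 h. Smooth muscle markers had a median of 0.38, with 0 of 10 called (5 at an unadjusted p under 0.05).

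Of 6 endothelial markers 2 rose, Kdr by 0.85 (SE 0.19, adjusted p = 0.0358, and 0.0966 without 6 h replicate 3) and Plvap by 1.17 (SE 0.26, adjusted p = 0.035, and 0.097 without 6 h replicate 2), while Pecam1 and Vwf were below the filter. Acta1, a skeletal muscle actin, rose by 1.51 (SE 0.19, adjusted p = 0.00499), and the muscle myosin Myh1 gave 0.48 from 11.54, with Ckm and Tnnt3 below the filter. No neutrophil, B cell or mast cell marker reached the filter, and Cd3d, Cd3e and Cd3g did not either. Of 11 tested epithelial markers 1 rose (Cldn4) and 8 had a positive difference, with a median of 0.46 and 7 at an unadjusted p under 0.05. The differences ran from -0.31 for St14 to 1.80 for Krt19, neither of which passed the test. The part of any shift in cell makeup in the gene results was not tested.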

How the data were processed

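Each ligated tissue sample was run on 1 Affymetrix rat array. The values used are the deposited log2 values of the series value table (2.22 to 15.09), made by the authors with GCRMA per the submitters' processing notes. GCRMA corrects background by probe sequence and then quantile-normalizes, so a shift shared by all genes would be removed. The table was not changed.

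Of 31099 probe sets, 57 controls were left out. The platform annotation gave 20826 of the rest 1 gene symbol, 436 several and 9780 none, and 20758 symbols were found by Entrez ID in the GRCr8 gene table. The 12995 tested probe sets (10565 with 1 symbol) entered a limma 3.58.1 model under R 4.3.3 (8 arrays, 2 groups, lmFit then eBayes), with Benjamini-Hochberg adjusted p over all of them. Of the called probe sets, 134 had no single symbol and are unnamed. With 4 arrays a group, their number limits the precision.

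Named genes were the 15 called genes with the largest rise and the 15 with the largest fall, taken from those without overlap and with 1 sign in both subsets (replicates 1 and 2, replicates 3 and 4) (no LOC, RGD or clone names), up to 5 called members of each of 33 pathway lists or the member with the smallest p, and 21 genes always named. Other names were chosen after their values were seen. There were 18 marker lists. The comparison, members and lists were chosen with earlier results of these data known.

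Replicate numbers were checked as pairs. Deviations from the group means correlated at 0.407, 0.474, 0.482 and 0.437 between arrays of the same number, so the block was fitted. Arrays of different numbers within a subset also correlated at 0.233 to 0.417, and across subsets at -0.275 to -0.465, and the labels do not say that a number is an animal. Alternatives were other priors, filters, normalizations (statmod 1.5.0 for array weights), blocks, subsets, thresholds and each of the 8 arrays left out. The script was tested on simulated data. Promoters were RefSeq windows, present for 89 of the 116 named genes.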

Additional observations from a re-analysis of the deposited data

Results flagged for a closer look

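In 17 of the 232 groups of 4 arrays examined among named genes (7.33%), 1 array lay far from the other 3 by Dixon's test, which chance does in about 1 of 20 groups.

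At 6 h, replicate 4 was the outlying array for Rnase12 (10.12 against 6.42 to 6.72), Mcub, a brake on mitochondrial calcium uptake (5.16 against 2.71 to 2.91), Cyp4f4 (8.69 against 6.79 to 7.06), Per1 (5.72 against 5.35 to 5.36) and Per2 (7.15 against 6.60 to 6.68). In Rnase12, Mcub and Cyp4f4 this array was nearer to the 18 h level than the other 3. Replicate 3 of 6 h was high for Isg15 (5.90 against 3.78 to 4.06) and Egr1 (7.99 against 7.18 to 7.31) and low for Psma3 (7.64 against 7.80 to 7.83). Krt14 was low in replicate 2 (7.92 against 8.22 to 8.26), and Aqp9 was low in replicate 1 (12.38 against 12.71 to 12.74).

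At 18 h, replicate 3 was high for Krt79 (5.0 against 2.87 to 3.10), Cst8 (13.03 against 12.40 to 12.46) and Krt14 (9.53 against 8.91 to 8.94), and low for Slc7a8, an amino acid carrier (9.31 against 9.78 to 9.85). Replicate 4 was low for Txnrd1 (8.83 against 9.42 to 9.48) and Spry4 (6.08 against 6.44 to 6.50), and replicate 1 was low for Nfkbia (8.58 against 8.89 to 8.95). What set these arrays apart was not tested.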

How the results depend on the processing

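The count of 868 probe sets (378 rises, 490 falls) moved by over 1.5 times with no minimum level (263, 92 and 171), at least a 2-fold difference (410, 200 and 210) and an adjusted p under 0.01 (207, 74 and 133). With the replicate block it was 1590 (749 and 841), and with the subset block 1869 (828 and 1041). Within replicates 1 and 2 it was 301 (152 and 149), and within replicates 3 and 4 it was 0 (0 and 0, with 2383 probe sets at an unadjusted p under 0.05 by limma). Leaving out 1 array gave 405 to 1069 probe sets, 164 to 540 rises and 241 to 529 falls. The interaction of time and subset gave 0, and 2 with the minimum of 7. The counts stayed within 1.5 times under a trend and robust prior (943), the minimum of 7 (883), all 16 arrays (1041), median centring (879), quantile normalization again (902), cyclic loess (870), array weights (1153) and probe sets averaged by gene (717).

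Of the 116 named genes 102 were called, and 54 of these stayed called in all 8 fits without 1 array. The subset block lost 0 of these calls and added 3, and the replicate block lost 2 and added 2. Signs turned for Spry4 (0.03) and Per1 (-0.21) within replicates 1 and 2, for Bmal1 (-0.10), Dusp5 (-0.16) and Dusp6 (-0.08) within replicates 3 and 4, and for Akap3, a sperm gene with 0.28 and no call, which ran from -0.10 to 0.74 without 1 array. The cause was not tested. Values under 5 are near background, so differences that start there are bounds.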

Other observations

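Some of the largest rises lay outside the gene lists. Dnase1l3, a secreted nuclease, read 8.30, 8.48, 7.91 and 10.53 at 6 h and 11.92, 11.32, 11.14 and 12.59 at 18 h, and rose by 2.94 (SE 0.58, adjusted p = 0.0243 by limma, and 0.0777 without 6 h replicate 1). Vtcn1, a surface protein that restrains T cells, read 3.49, 4.39, 2.92 and 5.77 at 6 h and 7.32, 6.61, 7.34 and 8.50 at 18 h, a rise of at least 2.44 (adjusted p = 0.0221, and 0.0708 without 6 h replicate 1). In both genes replicate 4 was the highest array at each time. Pla2g2a, a secreted phospholipase, read 5.34, 7.49, 7.01 and 6.66 at 6 h and 9.90, 10.67, 9.52 and 7.96 at 18 h, and rose by 2.89 (SE 0.64, adjusted p = 0.0356, and 0.0947 without 18 h replicate 1). Its 18 h values were lowest in replicate 4.

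Of the 62 rises with another tested probe set, 72 of 76 such probe sets had the same sign and 20 were called the same way. Of the 94 falls with one, 126 of 128 had the same sign and 56 were called. For both directions 0 were called the opposite way.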
